A study of Mus musculus with 12 samples.

Results

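The 8 genes described here encode parts of the renin-angiotensin and bradykinin systems, and were followed across 4 groups of mouse lung. They are the precursor gene Agt, the peptidase genes Ace, Enpep and Mme, the angiotensin receptor genes Agtr1a and Agtr2, and the bradykinin receptor genes Bdkrb1 and Bdkrb2. They were taken by symbol from a table of 38349 genes, each symbol stood in it once, and all 8 were found. The 12 libraries come from whole lung of wild-type mice, 3 each from uninjured lung (Control), lung with acute injury from hypoxia and lipopolysaccharide, a bacterial cell wall component (ALI), injured lung given MSC, and injured lung given tpMSC. The injury is shared by the ALI, MSC and tpMSC groups, and Control carries neither the injury nor a cell treatment. What distinguishes tpMSC from MSC, the dose and time of each agent, and the strain, sex and age of the mice are not stated by the labels. The labels also leave unsaid whether each library is from its own mouse, so the tests reflect the scatter of these 3 libraries per group, and that scatter may be purely technical.

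Angiotensinogen, the product of Agt, is cut by renin to angiotensin I, and angiotensin-converting enzyme (ACE) turns that peptide into angiotensin II. ACE sits on the surface of the lung's capillary endothelium, where it also destroys bradykinin, so 1 enzyme acts on both peptide systems. Angiotensin II raises vascular tone through the type 1 receptor. Bradykinin widens vessels and makes them leaky through its B2 receptor, which most tissues carry constitutively, while the B1 receptor is known for its induction by inflammation and bacterial products.

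Libraries held 53083002 to 70209229 counts, the fewest in ALI replicate 2. Replicates of 1 group correlated at 0.964 to 0.982 (log2 CPM, across genes). ALI replicate 2 had the lowest bradykinin receptor levels of its group, and MSC replicate 2 the lowest Enpep, Mme and Agtr1a levels of its own. Control replicate 3, MSC replicate 1 and tpMSC replicate 3 held the most adipose and cardiac muscle transcripts of their groups (summed adipose markers 26.2, 25.4 and 33.4 FPKM, fragments per kilobase of exon scaled to library size). Markers of lung cells were present, with 12 of 12 endothelial and 8 of 8 alveolar type 2 markers passing the filter on low counts. The test compared counts in edgeR (quasi-likelihood test) over 22915 genes, and a gene is said to rise or fall where its Benjamini-Hochberg adjusted p over all of these was under 0.05.

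The promoter windows of Agt, Enpep and Mme, which fell together after injury, are shown beside that of Bdkrb2, which rose. Each runs from 250 bases before to 50 after a RefSeq start, 5′ to 3′ on the gene's strand (GRCm38.p6), with matches to 5 searched motifs in capitals. RefSeq windows were matched for 6 of the 8 genes, 9 windows in all. Bdkrb1 and Agtr1a are the unmatched genes.
Agt, chr8:124569657-124569956, minus strand: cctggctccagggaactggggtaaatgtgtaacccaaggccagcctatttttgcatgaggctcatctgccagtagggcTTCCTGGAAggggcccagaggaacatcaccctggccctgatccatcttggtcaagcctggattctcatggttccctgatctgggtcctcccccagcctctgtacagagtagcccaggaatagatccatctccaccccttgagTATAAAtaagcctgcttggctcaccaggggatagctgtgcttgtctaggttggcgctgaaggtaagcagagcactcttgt
Enpep, chr3:129332700-129332999, minus strand: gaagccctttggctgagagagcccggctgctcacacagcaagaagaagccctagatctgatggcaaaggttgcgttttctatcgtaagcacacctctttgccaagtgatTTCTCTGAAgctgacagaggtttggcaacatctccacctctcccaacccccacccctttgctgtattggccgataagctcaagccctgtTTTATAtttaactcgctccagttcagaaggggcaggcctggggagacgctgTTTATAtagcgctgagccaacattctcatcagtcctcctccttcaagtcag
Mme, chr3:63294961-63295260, plus strand, the first of 3 starts: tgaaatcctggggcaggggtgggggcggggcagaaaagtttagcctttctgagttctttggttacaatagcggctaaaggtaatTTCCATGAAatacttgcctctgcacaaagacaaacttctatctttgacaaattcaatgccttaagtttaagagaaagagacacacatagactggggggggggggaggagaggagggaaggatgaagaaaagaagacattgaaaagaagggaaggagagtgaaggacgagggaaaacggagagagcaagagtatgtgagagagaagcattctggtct
Bdkrb2, chr12:105562922-105563221, plus strand: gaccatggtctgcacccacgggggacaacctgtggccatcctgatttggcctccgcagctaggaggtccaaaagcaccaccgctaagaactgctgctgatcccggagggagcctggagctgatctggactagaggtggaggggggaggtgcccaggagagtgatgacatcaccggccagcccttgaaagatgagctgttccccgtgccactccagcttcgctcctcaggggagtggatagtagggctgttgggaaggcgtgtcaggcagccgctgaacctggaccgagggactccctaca
The motif TTCNNNGAA, which reads the same on both strands, stands 172 bases before the start in Agt, 141 in Enpep and 166 in the printed Mme window, and 8.3% of 32851 promoter windows hold it. The other 2 Mme windows do not hold it, and no relation between a motif and the change of a gene was tested. TATAAA, searched on both strands, matched 30 bases before the Agt start and at 2 places in Enpep on the opposite strand, and 13.6% of windows hold it. Among the 9 windows, the kappaB consensus (8.46% of all windows) matched in 1 Mme window and TGANTCA (7.81%) at 1 site shared by 2 overlapping Mme windows, neither printed here, and the Ace window at its upstream start held 1 TATAAA on the opposite strand. ACGTG (19.6%) had no match in the 9 windows, and no motif matched in the Bdkrb2 window, in that of Agtr2 or at the downstream Ace start. No printed matches overlap each other.

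**Figure D1:**
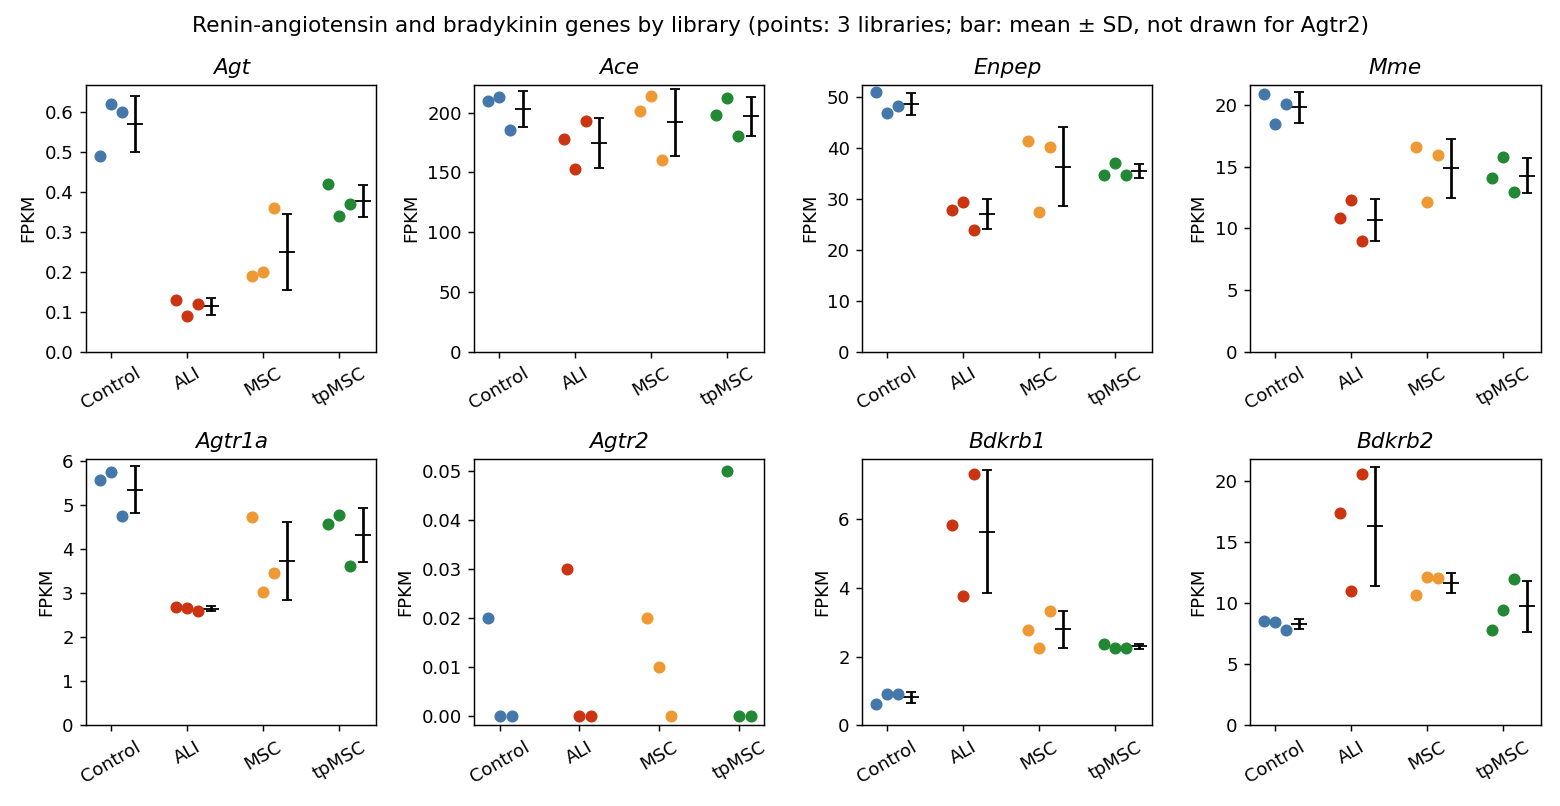
FPKM of the 8 genes (vertical axes, each with its own scale) in the 3 libraries of each group (points), with the group mean and SD as bars except for Agtr2. Bdkrb1 lies at 0.62 to 0.91 FPKM in Control and 3.75 to 7.31 in ALI, Agt, Enpep, Mme and Agtr1a are lower in every ALI library than in every Control library, and Ace overlaps between all groups.

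The first comparison asked what the injury changed in these genes. Both bradykinin receptor genes rose in ALI lung, Bdkrb1 7.09-fold and Bdkrb2 2.06-fold. Agt, Enpep, Mme and Agtr1a fell, Agt 4.72-fold and the other 3 by 1.73-fold to 1.93-fold. Ace, the most abundant of the 8, did not pass the test, and Agtr2 was too low to judge. Of 7 genes tested, 2 rose and 4 fell, against a background of 39.8% of all genes tested called (20.2% higher, 19.6% lower). The ALI and Control libraries did not overlap for 6 of the 7, and for 55.9% of all genes. In every comparison, overlap was judged on FPKM for the 7 and on log2 CPM for all genes. The median log2 fold change of the 7 was -0.79, against -0.02 for all genes. In whole lung, fewer cells of a type and less RNA per cell cannot be told apart.

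Agt (ENSMUSG00000031980, chromosome 8, 124556534 to 124569706, minus strand, GRCm38) encodes the only precursor of the angiotensins. It was at 0.49, 0.62 and 0.6 FPKM in the Control libraries, 0.13, 0.09 and 0.12 in ALI, 0.19, 0.2 and 0.36 in MSC, and 0.42, 0.34 and 0.37 in tpMSC. Every Control library exceeded every other library, and every ALI library lay below all others. These are low levels: the ALI libraries held 17, 11 and 16 counts and the Control libraries 65, 88 and 86. The log2 fold change in ALI was -2.24 ± 0.32 (SE, n = 3 per group; edgeR adjusted p = 0.000186). Agt is a typical liver and adipose gene. Adipose markers summed to 8.9 to 26.2 FPKM in Control and 2.42 to 9.38 in ALI, with 0 of 5 tested higher and 1 lower. Most of the Control sum was Cfd (7.49 ± 8.55 FPKM, and 3.28 ± 2.66 in ALI) and Cidec (5.6 ± 0.406 and 0.61 ± 0.418). Plin1 and Plin4 were at 0.207 and 0.833 FPKM in Control and 0.197 and 0.87 in ALI, and Adipoq at 0.75 and 0.45. Liver markers summed to 1.54 to 1.86 FPKM in Control and 2.43 to 3.3 in ALI, with 1 of 3 tested higher (Serpina1c) and 1 lower. Of the defining liver genes, Ttr, Apoc3 and Fgb were listed at 0 in every Control and ALI library. In tpMSC they averaged 0.0767, 0.0333 and 0.0733 FPKM, each with a library at 0, and in MSC only Fgb was above 0 (0.02). Apoa1 averaged 0.0133 FPKM in Control, 0.0267 in ALI, 0.04 in MSC and 0.2 in tpMSC. Albumin (Alb) was at 0.5 ± 0.06 FPKM in Control and 0.0867 ± 0.117 in ALI. It was at 0.133 ± 0.0751 in MSC and 0.447 ± 0.153 in tpMSC (SD, n = 3). The part of these markers in the Agt result was not tested.

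Ace (ENSMUSG00000020681, chromosome 11, 105967945 to 105989964, plus strand) encodes the converting enzyme. It was at 209, 213 and 186 FPKM in Control, 178, 152 and 193 in ALI, 201, 214 and 160 in MSC, and 198, 212 and 180 in tpMSC. The 4 groups overlapped. Its mean over all libraries, 191 FPKM, exceeded that of 99.3% of the genes tested. The log2 fold change in ALI was -0.16 with a 95% interval of -0.42 to 0.10 (edgeR adjusted p = 0.331), so a fall beyond -0.42 lies outside the interval. Over the same libraries, 11 of 12 endothelial markers fell (median log2 fold change -1.03), and their summed level went from 905.1 to 929.7 FPKM in Control to 439.4 to 493.5 in ALI. Tek, the angiopoietin receptor of endothelium, is an example at 93 ± 4.3 and 28.6 ± 4.84 FPKM. The plot of Ace against these markers shows the ALI libraries apart from Control along the marker axis and overlapping along the Ace axis. The difference between Ace and the markers was not tested. An antisense gene, Gm11651, covers 295 of 5287 exonic bases of Ace and reached at most 0.2 FPKM.

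**Figure D2:**
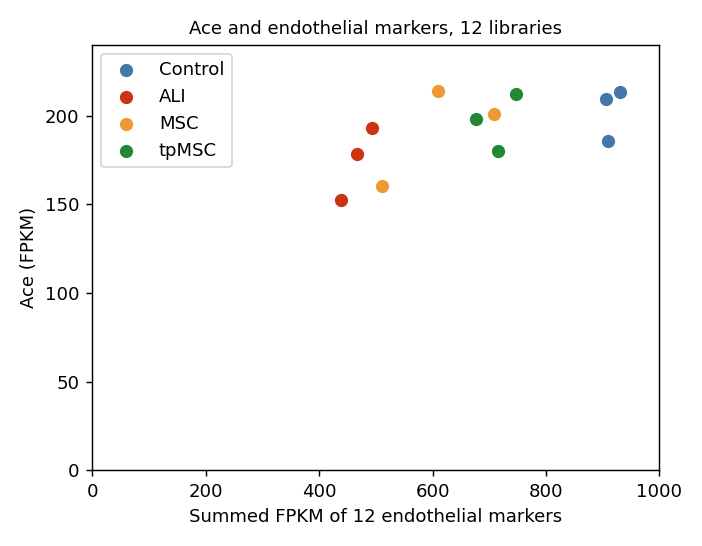
Ace level (vertical axis, FPKM) against the summed FPKM of 12 endothelial markers (horizontal axis) in each of the 12 libraries, coloured by group. Marker sums are 905.1 to 929.7 in Control and 439.4 to 493.5 in ALI, while Ace spans 186 to 213 FPKM in Control and 152 to 193 in ALI.

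Enpep (ENSMUSG00000028024, chromosome 3, 129269175 to 129332720, minus strand) encodes aminopeptidase A, which trims angiotensin II to angiotensin III. It was at 51, 46.8 and 48.3 FPKM in Control, 27.9, 29.5 and 23.9 in ALI, 41.5, 27.4 and 40.1 in MSC, and 34.7, 37 and 34.8 in tpMSC. Control lay above all other libraries, and MSC replicate 2 lay within the ALI range. The log2 fold change in ALI was -0.79 ± 0.14 (SE; edgeR adjusted p = 0.000727). Mme (ENSMUSG00000027820, chromosome 3, 63241537 to 63386030, plus strand) encodes neprilysin, a membrane peptidase that cuts bradykinin, angiotensin I and other small peptides. It was at 20.9, 18.5 and 20.1 FPKM in Control, 10.8, 12.3 and 8.96 in ALI, 16.6, 12.2 and 15.9 in MSC, and 14.1, 15.8 and 12.9 in tpMSC. The order of groups was that of Enpep, again with MSC replicate 2 within the ALI range. Mme fell by 0.83 on the log2 scale in ALI (SE 0.14; edgeR adjusted p = 0.00057). The genes lie on the same chromosome, far apart, and their log2 CPM correlated at r = 0.978 over the 12 libraries and at 0.91 after subtraction of each group's mean, a description over libraries that also share their depth and cell makeup.

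Agtr1a (ENSMUSG00000049115, chromosome 13, 30336441 to 30382867, plus strand) encodes the main angiotensin II type 1 receptor of the mouse. It was at 5.57, 5.74 and 4.74 FPKM in Control, 2.69, 2.66 and 2.59 in ALI, 4.73, 3.02 and 3.45 in MSC, and 4.56, 4.77 and 3.61 in tpMSC. The ALI libraries were close together and below all others, and tpMSC overlapped Control. The log2 fold change in ALI was -0.95 ± 0.16 (SE; edgeR adjusted p = 0.000693). Its close copy Agtr1b was at 0.21 ± 0.0755 FPKM in Control and 0.0333 ± 0.0306 in ALI (SD, n = 3), and fell too (log2 fold change -2.49 ± 0.79 SE, edgeR adjusted p = 0.0252). How reads shared by the copies were divided is not given, so the Agtr1b values are uncertain, and its call was lost without Control replicate 2 or ALI replicate 1 (adjusted p = 0.0847 and 0.067). Agtr2 (ENSMUSG00000068122, chromosome X, 21484544 to 21489164, plus strand) encodes the type 2 receptor, which is known to oppose the type 1 receptor. It held 5, 0 and 0 counts in Control, 9, 0 and 0 in ALI, 4, 4 and 0 in MSC, and 11, 0 and 0 in tpMSC. Counts came from 1 or 2 libraries of each group, 33 in all, and a count of 0 allows up to 0.0427 to 0.0565 CPM (counts scaled to library size), depending on the library (3 counts, counting error only). The filter removed Agtr2, so no statement on it is made. For Enpep, Mme and Agtr1a, marker levels in the same libraries are given here together. Fibroblast markers summed to 1679 to 1780 FPKM in Control and 374.9 to 548.2 in ALI (2 higher and 4 lower of 10). Most of the Control sum was Inmt (1430 ± 43.2 FPKM, and 222 ± 85.8 in ALI), and the median log2 fold change of the 10 was -0.11. Pericyte and smooth muscle markers summed to 141.4 to 169 and 110.4 to 147.5 (1 higher and 3 lower of 10). Of 8 alveolar type 1 markers 7 fell and 1 rose, of 8 type 2 markers 4 fell and 2 rose, and of 7 B cell markers 1 fell. Kidney markers, from a tissue rich in all 3 genes, summed to 4.1 to 4.16 and 3.86 to 4.01 FPKM, with 0 higher and 1 lower of 4 tested (median log2 fold change -0.67). Most of that sum was Lrp2 (3.42 ± 0.18 and 3.72 ± 0.0907 FPKM), while Aqp2 fell from 0.433 ± 0.18 to 0.14 ± 0.03 and Kap, at 0.22 ± 0.195 FPKM in Control, was listed at 0 in every ALI library. Their part in these results was not tested.

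Bdkrb1 (ENSMUSG00000041347, chromosome 12, 105603085 to 105605428, plus strand) encodes the inducible B1 receptor, which binds bradykinin after loss of its last arginine. It was at 0.62, 0.91 and 0.91 FPKM in Control, 5.81, 3.75 and 7.31 in ALI, 2.78, 2.26 and 3.32 in MSC, and 2.37, 2.26 and 2.25 in tpMSC. Every ALI library exceeded every other library, and both treated groups lay above Control and below ALI. The log2 fold change in ALI was 2.83 ± 0.26 (SE; edgeR adjusted p = 9.99e-06), and it ran from 1.84 to 3.05 over 20 alternative analyses. Bdkrb2 (ENSMUSG00000021070, chromosome 12, 105563226 to 105595237, plus strand) encodes the constitutive B2 receptor and ends 7847 bases before Bdkrb1 begins. It was at 8.52, 8.45 and 7.78 FPKM in Control, 17.3, 11 and 20.5 in ALI, 10.7, 12.1 and 12.1 in MSC, and 7.81, 9.42 and 11.9 in tpMSC. ALI lay above Control, but ALI replicate 2 fell among the treated libraries. The log2 fold change in ALI was 1.04 ± 0.20 (SE; edgeR adjusted p = 0.00158), and 1.26 without ALI replicate 2. All 9 neutrophil markers rose in ALI, their sum going from 145.1 to 239.3 FPKM in Control to 3792 to 4286, and macrophage and monocyte markers from 97.1 to 100.5 to 591.4 to 635.4 (5 higher and 1 lower of 8). Most of the latter sum in ALI was Cd14 (430 ± 21.8 FPKM, against 10.8 ± 1.77 in Control). In ALI replicates 1, 2 and 3 the neutrophil sums were 4015, 4286 and 3792 FPKM. The macrophage and monocyte sums there were 591.4, 635.4 and 617.7 FPKM. The part of these cells in the receptor results was not tested.

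The balance between the bradykinin receptors also differed between libraries. Bdkrb1 made up 6.78%, 9.72% and 10.5% of the summed FPKM of both receptors in Control, 25.1%, 25.5% and 26.3% in ALI, 20.7%, 15.7% and 21.6% in MSC, and 23.3%, 19.3% and 15.9% in tpMSC. The ALI libraries were close together, and no group overlapped Control. ALI (25.6% ± 0.593) against Control (8.99% ± 1.95, SD, n = 3) gave p = 0.1 in an exact two-sided permutation test, the smallest p that 3 against 3 allows. MSC (19.3% ± 3.15) and tpMSC (19.5% ± 3.71) against ALI gave the same exact p = 0.1, and adjusted over the 3 comparisons it stayed at 0.1.

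**Figure D3:**
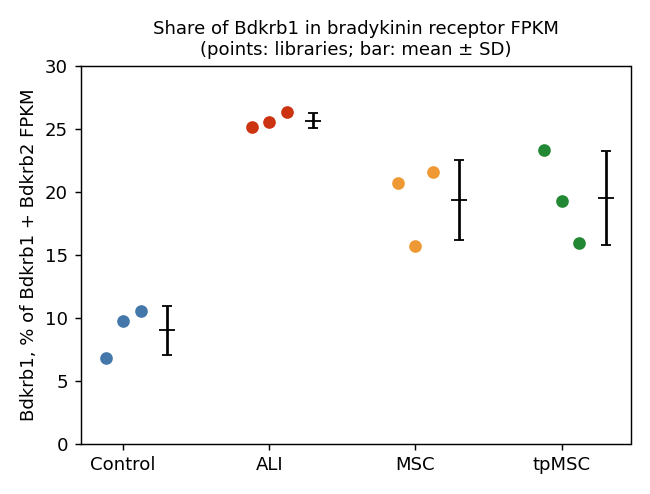
Bdkrb1 as a percentage of summed Bdkrb1 and Bdkrb2 FPKM (vertical axis) in each library (points), with group mean and SD. ALI libraries lie at 25.1 to 26.3%, Control at 6.78 to 10.5%, and the treated libraries at 15.7 to 23.3%.

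By level, the order in Control was Ace, Enpep, Mme, Bdkrb2, Agtr1a, Bdkrb1, Agt and Agtr2 (203, 48.7, 19.8, 8.25, 5.35, 0.813, 0.57 and 0.00667 FPKM). FPKM is per length, so these levels can be set side by side. Among neighbours in that order, Bdkrb1 and Agt met at 0.62 FPKM (the lowest Bdkrb1 and the highest Agt library), and the libraries of the other pairs from Ace to Agt were apart. In ALI, Bdkrb2 at 16.3 ± 4.86 FPKM stood above Mme at 10.7 ± 1.69, with libraries that overlapped, and Bdkrb1 at 5.62 ± 1.79 stood above Agtr1a at 2.65 ± 0.0513 with none that did (SD, n = 3). In MSC and tpMSC the order was that of Control, and in MSC the libraries of Agtr1a and Bdkrb1 overlapped.

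The next comparison asked how injured lungs given MSC differed from untreated injured lungs. Of the 7 genes only Bdkrb1 was called, falling to 2.79 ± 0.53 FPKM from 5.62 ± 1.79 (SD, n = 3; log2 fold change -1.06 ± 0.24 SE, edgeR adjusted p = 0.0178), against 10.2% of all genes called (5.03% higher, 5.21% lower). Libraries did not overlap for 3 of the 7 genes, Bdkrb1, Agt and Agtr1a, and for 27% of all genes. That call was lost without ALI replicate 1, ALI replicate 3 or MSC replicate 1 (adjusted p = 0.0614, 0.0784 and 0.0653) and with only the 6 libraries compared (0.0654). Agt stood at 2.12-fold with no overlap between the groups but missed the threshold (log2 fold change 1.08, 95% interval 0.39 to 1.77, adjusted p = 0.0508). Enpep, Mme and Agtr1a had log2 fold changes of 0.38, 0.43 and 0.44 (adjusted p = 0.105, 0.0723 and 0.11), and Bdkrb2 had -0.54 (0.118). MSC replicate 2 bears on these values. Without it Agt, Enpep, Mme and Agtr1a passed as higher (adjusted p = 0.0392, 0.00358, 0.0173 and 0.0383), and 5 genes were called in place of 1. Without ALI replicate 2, Mme (0.0382) and Bdkrb2 (0.0185) passed, and DESeq2 called 4 genes. Ace had a log2 fold change of 0.09 with an interval of -0.18 to 0.35. All 9 neutrophil markers fell in MSC (sum 476.4 to 994.8 FPKM), and 5 of 12 endothelial markers rose. Of 10 pericyte and smooth muscle markers 4 rose, of 10 fibroblast markers 4 rose, and of 8 alveolar type 1 markers 3 rose and 1 fell. Of 8 macrophage and monocyte markers 1 fell, and of 5 adipose and 3 liver markers tested 0 were called. The part of these markers in the results for MSC was not tested. The ALI libraries enter this comparison and the first one.

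In injured lungs given tpMSC, 4 of the 7 genes differed from untreated injured lungs, against 23.1% of all genes (11.6% higher, 11.5% lower). Libraries did not overlap for 5 of the 7, and for 40.5% of all genes. Agt rose from 0.113 ± 0.0208 to 0.377 ± 0.0404 FPKM (log2 fold change 1.69 ± 0.32 SE, edgeR adjusted p = 0.00273), and Agtr1a from 2.65 ± 0.0513 to 4.31 ± 0.618 (0.68 ± 0.16, adjusted p = 0.0113). Bdkrb1 fell to 2.29 ± 0.0666 FPKM (log2 fold change -1.31 ± 0.24, adjusted p = 0.00259), and Bdkrb2 to 9.72 ± 2.08 (-0.77 ± 0.20, adjusted p = 0.0174), with tpMSC replicate 3 above ALI replicate 2. The calls for Agt and Bdkrb1 held in all 20 alternatives. The Agtr1a call was lost without tpMSC replicate 2 (adjusted p = 0.0511). The Bdkrb2 call was lost without ALI replicate 1 or 3 or tpMSC replicate 1 or 2 (0.0585, 0.076, 0.0752 and 0.0623), and with only the 6 libraries compared (0.0557). Enpep and Mme had log2 fold changes of 0.37 and 0.39 (adjusted p = 0.0723 and 0.0601), with every tpMSC library above every ALI library. Enpep passed without MSC replicate 2 (0.00718), and Mme without ALI replicate 2, MSC replicate 2 or tpMSC replicate 3 (0.0274, 0.0284 and 0.047). DESeq2 called 6 genes, Enpep and Mme among them. Of 12 endothelial markers 10 rose in tpMSC against ALI, of 10 pericyte and smooth muscle markers 8 rose, and of 9 neutrophil markers all fell (sum 466.2 to 618.8 FPKM). Of 7 B cell markers 6 fell (median log2 fold change -1.55), of 8 macrophage and monocyte markers 4 fell and 1 rose, of 10 fibroblast markers 5 rose, and of 8 alveolar type 1 markers 5 rose and 1 fell. Adipose markers summed to 9.92 to 33.42 FPKM in tpMSC and 2.42 to 9.38 in ALI, with 1 of 5 tested higher and 0 lower (median log2 fold change 1.36). Most of the tpMSC sum was Cfd (10.1 ± 11.7 FPKM, and 3.28 ± 2.66 in ALI) and Cidec (4.89 ± 0.318 and 0.61 ± 0.418). Liver markers summed to 1.88 to 3.4 FPKM in tpMSC and 2.43 to 3.3 in ALI, with 0 of 3 tested called (median 2.24). The part of these markers in the results was not tested. The ALI libraries are shared with the comparisons above.

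No member was called between tpMSC and MSC, in edgeR or DESeq2, and none had an unadjusted p under 0.05 in either (edgeR called 0.0305% of all genes, 0.0175% higher and 0.0131% lower). Libraries overlapped for all 7, and did not for 14.2% of all genes. The widest interval was that of Agt, whose log2 fold change of 0.61 had a 95% interval of -0.04 to 1.26, which takes in both no change and a rise of over 1 on the log2 scale. Ace had the narrowest, -0.20 to 0.32. The intervals were -0.30 to 0.28 for Enpep, -0.33 to 0.26 for Mme and -0.12 to 0.58 for Agtr1a. For the bradykinin receptors they were -0.78 to 0.27 (Bdkrb1) and -0.67 to 0.21 (Bdkrb2). None of the 7 genes was thus shown to differ between the treatments.

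**Figure D4:**
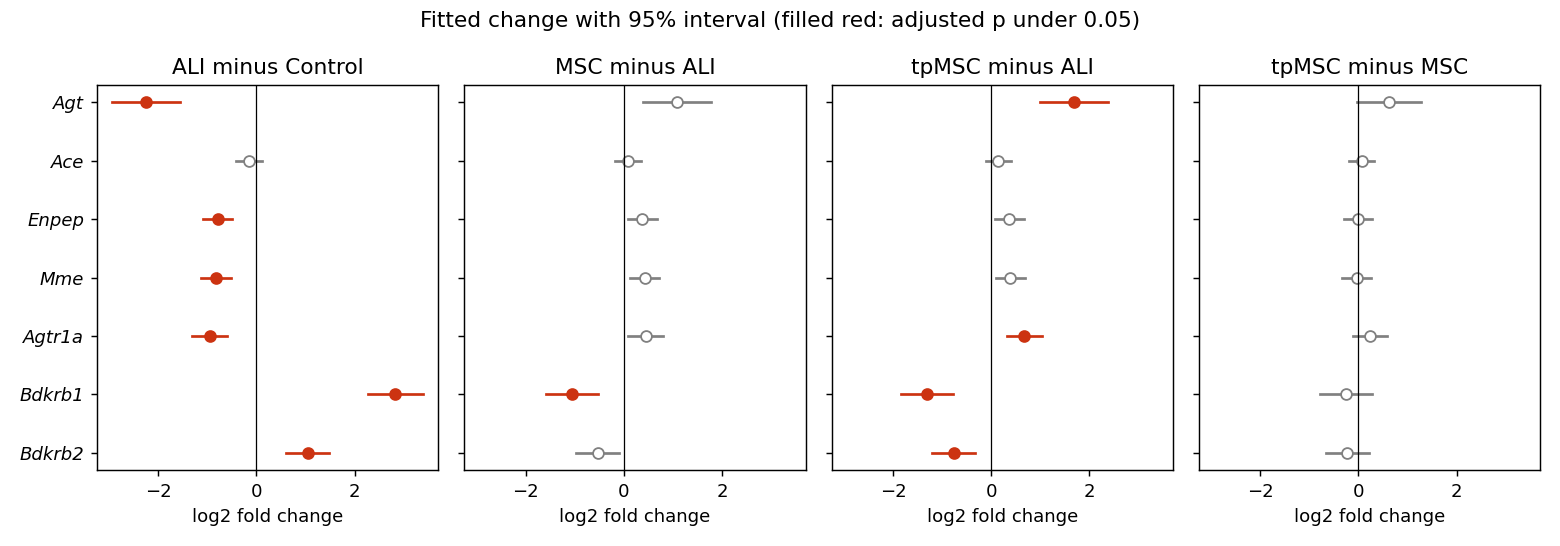
Log2 fold change (horizontal axis) of the 7 tested genes in 4 comparisons with 95% intervals; filled red points passed the test. In ALI against Control 6 genes are red, in MSC against ALI only Bdkrb1, in tpMSC against ALI 4, and in tpMSC against MSC none.

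The last comparison asked what difference from uninjured lung remained under treatment. Bdkrb1 stayed above Control, 3.41-fold in MSC (edgeR adjusted p = 0.000964) and 2.85-fold in tpMSC (0.00297), and both calls held in all 20 alternatives. In MSC, Agt (2.23-fold lower, adjusted p = 0.0193) and Agtr1a (1.42-fold lower, 0.0474) were also called, making 1 rise and 2 falls against 18.7% of all genes (10.7% higher, 8% lower). Libraries did not overlap for 6 of the 7, and for 38.6% of all genes. For Agtr1a this rests on 4.73 FPKM in MSC replicate 1 against 4.74 in Control replicate 3, both at 14.3 CPM. The Agt call was lost without Control replicate 2 or 3 or MSC replicate 1 or 2 (0.0689, 0.059, 0.0552 and 0.0709), and with only the 6 libraries compared (0.0558). The Agtr1a call held in 6 of 20 alternatives, with an adjusted p up to 0.151, and was lost without any of the libraries but MSC replicate 1 and tpMSC replicate 3. In tpMSC, Mme was the second call (1.35-fold lower, 0.0497), against 15.9% of all genes (9.1% higher, 6.79% lower), and it held in 7 of 20 alternatives. Libraries did not overlap for 4 of the 7, and for 39.3% of all genes. The Mme call was lost without each of 9 libraries: all 3 of Control, all 3 of tpMSC, ALI replicate 1, and MSC replicates 1 and 3 (adjusted p up to 0.152). Enpep stood 1.33-fold and 1.34-fold below Control in MSC and tpMSC (adjusted p = 0.0535 and 0.0547), with no overlap between libraries. It passed in MSC without MSC replicate 1 or 3 (0.0314 and 0.0452), and in tpMSC without any 1 of the MSC libraries (lowest 0.00562) or with only the 6 libraries compared (0.00563). Mme in MSC (1.32-fold lower, 0.0617) passed without ALI replicate 3 (0.0448), and Bdkrb2 in MSC (1.42-fold higher, 0.103) without ALI replicate 2 (0.0303) or with only the 6 libraries compared (0.00923). Agt and Agtr1a in tpMSC had log2 fold changes of -0.55 and -0.28 (0.238 and 0.28), and Bdkrb2 0.28 (0.394). Ace was at 0.952-fold and 0.995-fold of Control. Cell markers also differed from Control. In MSC 9 of 9 neutrophil markers were higher and 9 of 12 endothelial markers lower, and in tpMSC 8 of 9 and 6 of 12. In tpMSC 7 of 10 pericyte and smooth muscle markers were also higher and 6 of 7 B cell markers lower. Their part in these results was not tested.

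Other genes of the angiotensin system came from a list of 23, of which 20 were tested. In ALI 5 rose and 2 fell, 7 of 20 against 39.8% of all genes called (20.2% higher, 19.6% lower), so the share was near the background. Their median log2 fold change was 0.13, against -0.02 for all genes. Atp6ap2, the prorenin receptor, rose from 36 ± 0.763 to 46.6 ± 2.15 FPKM (SD, n = 3; log2 fold change 0.43 ± 0.09 SE, edgeR adjusted p = 0.00249), and Ctsd, a lysosomal protease, from 332 ± 8.32 to 561 ± 24.1. The aminopeptidase genes Anpep and Rnpep also rose (log2 fold change 0.39 and 0.35). Anpep lost its call without Control replicate 2 or 3 or ALI replicate 3 (adjusted p = 0.0833, 0.0896 and 0.12). Rnpep lost it without the same libraries or ALI replicate 1 (0.0817, 0.103, 0.136 and 0.0658). By limma both calls were lost (Anpep 0.0563, 0.0571 and 0.0869, Rnpep 0.0727, 0.0744 and 0.108), and without the filter that of Rnpep (0.0501). Of 20 alternatives, Anpep was lost in 6 and Rnpep in 8. Aplnr, the apelin receptor of endothelium, fell from 38.3 ± 4 to 8.55 ± 1.59 FPKM, and Agtr1b, at under 1 FPKM and named after its values were seen, was the other fall. Ren1, the renin gene, had no count in any Control or ALI library, and 12, 8 and 0 counts in MSC and 5, 4 and 0 in tpMSC. It was not tested.

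On the kallikrein and kinin side 15 of 17 listed genes were tested, and 4 rose and 4 fell in ALI, 8 of 15 against 39.8% of all genes (20.2% higher, 19.6% lower; median log2 fold change 0.17, against -0.02 for all genes). The falls were peptidases. Dpp4, a dipeptidyl peptidase of the cell surface, fell from 35.1 ± 1.27 to 12.7 ± 0.837 FPKM (SD, n = 3; log2 fold change -1.41 ± 0.16 SE, edgeR adjusted p = 4.63e-05). Ece1, endothelin-converting enzyme, which also cuts bradykinin, fell from 69.6 ± 4.67 to 33.4 ± 4.36 FPKM. The carboxypeptidase genes Cpm and Cpn1, whose products make the B1 receptor's ligands, fell from 25.2 ± 1.24 to 17.9 ± 1.52 and from 1.53 ± 0.178 to 0.773 ± 0.165 FPKM. Among the rises, Serping1, the C1 inhibitor that restrains plasma kallikrein, went from 112 ± 3.18 to 163 ± 2.45 FPKM. Xpnpep1, an aminopeptidase, went from 5.99 ± 0.315 to 8.06 ± 0.51, and Serpina3c, a serpin with close copies whose values are uncertain, from 2.15 ± 0.199 to 4.6 ± 2.3. The fourth rise, the kininogen gene Kng2, is named after its values were seen. It had 0 counts in Control and 12, 47 and 19 in ALI, at least 28.3-fold higher against a floor of 3 counts over the whole Control group (counting error only), and at least 15.9-fold without ALI replicate 2. It has a close copy in Kng1. With 0 counts in Control, Kng2 passed the filter on low counts only through the injured groups. Against Control it could therefore be called only as a rise. The 4 rises and 8 calls include Kng2, and the fold bounds leave out variation between libraries.

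**Figure D5:**
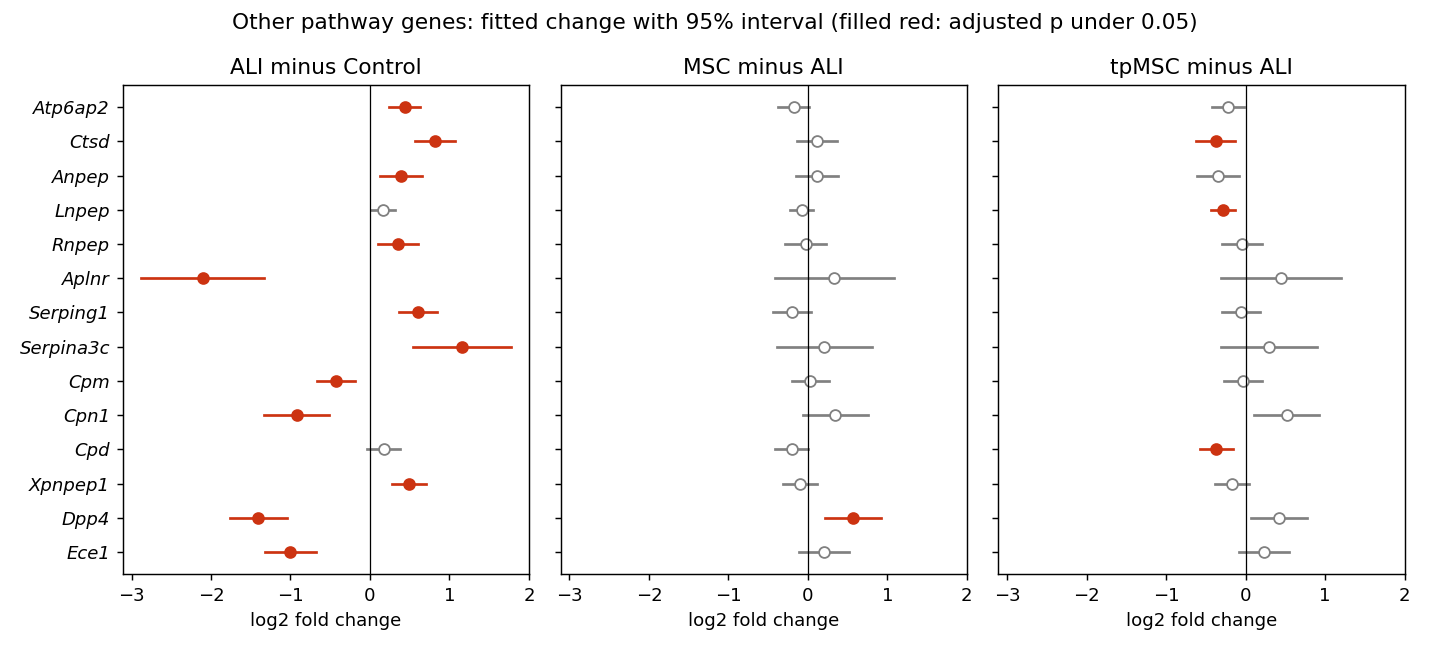
Log2 fold change (horizontal axis) with 95% intervals of other named pathway genes in 3 comparisons; filled red points passed the test. Aplnr is lowest in ALI against Control (-2.10), and Dpp4 is the only red point in MSC against ALI.

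In MSC against ALI, 0 of 20 angiotensin genes were called and 1 of 15 kinin genes, against 10.2% of all genes. The 1 was Dpp4, which rose to 19.5 ± 5.07 FPKM (edgeR adjusted p = 0.0452). Its call was lost without each of 9 libraries (the 3 of Control, the 3 of ALI, MSC replicates 1 and 3, and tpMSC replicate 1), with adjusted p up to 0.177, and in 14 of 20 alternatives in all, the replicate block (0.06) and the 6 libraries compared (0.114) among them. In tpMSC against ALI, Lnpep, the aminopeptidase that binds angiotensin IV, fell by 0.29 on the log2 scale, Ctsd by 0.38 and Cpd, a carboxypeptidase, by 0.37, and Agtr1b rose (2.60, adjusted p = 0.0334). Ctsd lost its call without any 1 of the Control or ALI libraries or tpMSC replicate 2 or 3 (adjusted p up to 0.11). With the fits without the filter (0.0542), with the replicate block (0.0523) and by limma (0.0647, 0.067 and 0.14), the Ctsd call was lost in 13 of 20 alternatives. Cpd lost it without ALI replicate 3 or tpMSC replicate 2 (0.0682 and 0.0747). Agtr1b lost it without ALI replicate 1 or tpMSC replicate 1 or 2 (0.091, 0.055 and 0.122), and with only the 6 libraries compared (0.0679). That made 1 rise and 3 falls of 20 on the angiotensin list, and 0 rises and 1 fall of 15 on the kinin list, against 23.1% of all genes (11.6% higher, 11.5% lower), and neither share was above the background. No gene of either list was called between tpMSC and MSC. Against Control, the angiotensin list had 2 rises and 1 fall in MSC and 1 of each in tpMSC, of 20 tested, and the kinin list 4 rises and 3 falls in MSC and 5 and 3 in tpMSC, of 15 tested. All genes were called at 18.7% in MSC and 15.9% in tpMSC. The lists were chosen with earlier results of these data known, so no result about either list is read from these counts. Some of these calls depended on the setting. Of 20 alternatives, the Serping1 call in MSC was lost in 5. Cpm was lost in 3 in MSC and 2 in tpMSC, and Xpnpep1 in 3 and 14. On the angiotensin list, Anpep was lost in 3 in MSC and Ctsd in 7 in tpMSC. The kinin rises in both groups include Kng2, which had 0 counts in Control. The calls for Serpina3c, Dpp4 and Ece1 held in all 20 in both groups.

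The genes, 3 or fewer shown, whose log2 CPM over the 12 libraries was most like that of each tested gene were taken from 13043 or 13044 genes with a mean of at least 1 FPKM. For Bdkrb1 these were Nectin2 (Pearson r = 0.985), Il6 (0.977) and Stfa2l1 (0.973). For Bdkrb2 they were Sdad1 (0.981), Dhx8 (0.98) and Pip4k2a (0.976). Agt was most like Mettl26 (0.974), Fam53b (0.972) and Sun1 (0.968). Enpep was most like Nectin3 (0.984) and S100g (0.982), and Mme like Acvr2a (0.985), Enpep itself (0.978) and Zfp763 (0.976). Agtr1a was most like Pomgnt2 (0.984), Fendrr (0.981) and Tns2 (0.979). For Ace the closest were weaker, Ndufc1 (0.891), Lppos (0.883) and L3hypdh (0.869). These values describe 12 libraries in 4 groups, and the libraries of a group are not independent points.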

How the data were processed

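Poly(A)-selected RNA of 12 mouse lung libraries was sequenced as read pairs, per the labels' protocols. The authors deposited, per the file headers, a raw count and an FPKM value per gene and library. The submitters' processing notes name the build GRCm38, HISAT2 2.0.4, StringTie 1.3.4d, cutadapt 1.9, edgeR and DESeq2, with no roles. How reads were counted, with or without strand, is not given in the sources used here. Deposited positions equal those of GRCm38 for 0 of the 8 genes, so GENCODE M21 positions are printed, matched by Ensembl ID.

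Sample titles gave the groups. Libraries had 53083002 to 70209229 counts. After filterByExpr and TMM scaling, edgeR 4.0.16 (R 4.3.3) was run on the 12 libraries together with a coefficient for each group. Standard errors are the log2 fold change divided by the square root of F. FPKM serves for levels (mean ± SD of 3 libraries). The pathway genes named are Ren1 and those called in ALI against Control or in a treatment against ALI, where some group averaged 1 FPKM or more, and some genes the rules name are not reported here. The members and lists were chosen with earlier results of these data known, so no p is adjusted over them alone. Alternatives were RLE scaling, no filter, DESeq2 1.42.0, limma 3.58.1 on log2(FPKM + 0.1), with and without a filter, or log2(FPKM + 1), only the 6 libraries compared, a replicate block, and each library left out.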

Additional observations from a re-analysis of the deposited data

How the results depend on the processing

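In ALI against Control the same 6 genes were called in all 20 alternatives. In the other comparisons the counts of called members depended on the setting. In MSC against ALI the 1 call became 4 with DESeq2 and 0 with only the 6 libraries compared, and ran from 0 to 5 with 1 library left out. In tpMSC against ALI the 4 calls ran from 2 to 6 with 1 library left out. In MSC against Control the 3 calls became 6 with DESeq2 and ran from 1 to 3 with 1 library left out. In tpMSC against Control the 2 calls became 1 with RLE scaling, without the filter, and with unfiltered limma, and ran from 1 to 3 with 1 library left out. The replicate number as a block left 1 call there, since Mme was lost (adjusted p = 0.0712), and changed no other member's call. Numbers showed no pairing: same-numbered libraries correlated at -0.108 to 0.104 over 18 pairs, and 4 of 12 libraries correlated best with their own number.

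Changes of sign were seen only for values near 0 that were never called. With 1 library left out, Ace ran from -0.002 to 0.198 in MSC against ALI, -0.045 to 0.156 in tpMSC against MSC, -0.162 to 0.038 in MSC against Control and -0.068 to 0.05 in tpMSC against Control, where it was 0.01 without the filter and 0.006 with only the 6 libraries compared. In tpMSC against MSC, Enpep ran from -0.171 to 0.088 and Mme from -0.157 to 0.041.

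Over all genes, 7 calls in tpMSC against MSC became 4 with RLE scaling, 603 with DESeq2, 12 with limma on log2(FPKM + 0.1), 0 with the block, without the filter or with the 6 libraries, and 0 to 386 with 1 library left out. In MSC against ALI, 2347 became 1221 with the 6 libraries and 1084 to 2930 with 1 library left out. The lowest counts with 1 library left out were 3399 of 5299 in tpMSC against ALI, 2465 of 4284 in MSC against Control and 1830 of 3643 in tpMSC against Control. The cause of these moves was not tested. On log2(FPKM + 1) low genes change less by construction, and Agt in ALI stood at -0.50. Depth limits Agtr2, Ren1 and, in ALI, Agt.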
